A study of Mus musculus with 11 samples.

Results

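The genes described here are 35 genes of cholesterol and fatty acid synthesis, out of 39017 genes in a table of mouse brain RNA-seq counts. They were taken by symbol through their Ensembl gene identifiers, and they fall into 8 genes of the mevalonate and prenyl diphosphate steps, 11 genes of the squalene and sterol steps, 6 regulators of the SREBP system with 1 sterol transfer protein among them, and 10 genes of fatty acid synthesis. All 35 passed the filter on low counts in both tissues, and none of them had a library with 0 reads.

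The study removed Dicer, the nuclease that cuts microRNA precursors into mature microRNAs, from forebrain neurons. The knockout (KO) mice were Camk2a-Cre;Dicer flox/flox, in which a promoter active mainly in excitatory forebrain neurons drives the recombinase, so that glia and most inhibitory neurons are expected to keep the gene. The other mice are labelled control, with no genotype given for them, so whether they carry the floxed alleles or the Cre transgene is not known here. Polyadenylated RNA of whole tissue was sequenced from the neocortex of 3 KO mice (D5130, D5132 and D5133) and 3 control mice (D5129, D5134 and D5135), and from the hippocampal CA1 region of 2 KO mice (D5130 and D5133) and 3 control mice (D5134, D5135 and D5138). The mice were 13 to 14 weeks old, and all were male except D5138. Each library came from 1 mouse and 1 tissue, and 4 of the 7 mice gave both tissues.

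The libraries held between 43144097 and 58329441 gene reads in the neocortex and between 24806581 and 35684618 in the CA1, and the 35 genes took 0.446% to 0.480% and 0.404% to 0.429% of them. The CA1 marker Fibcd1 was at 127 to 162 CPM (counts scaled to the library size) in the CA1 libraries and at 9.27 to 12.6 CPM in the neocortex libraries, and Prox1, a marker of the neighbouring dentate gyrus, was at 109 to 157 CPM in the CA1 libraries and at 14.1 to 17.9 CPM in the neocortex libraries. The neocortical layer marker Cux2 was at 174 to 194 CPM in the neocortex and at 35.8 to 54.5 CPM in the CA1. The whole-gene count of Dicer1 had a log2 fold change, KO over control, of -0.04 (edgeR adjusted p = 0.797, SE 0.062) in the neocortex and -0.003 (edgeR adjusted p = 0.988, SE 0.068) in the CA1. The labels do not say which exons are floxed and a count over the whole gene cannot separate them, so this value does not check the genotype.

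Cells make cholesterol from acetyl-CoA. Thiolase and synthase enzymes build hydroxymethylglutaryl-CoA, its reduction gives mevalonate, and mevalonate is phosphorylated, decarboxylated and condensed to farnesyl diphosphate, which is joined tail to tail into squalene and cyclised and trimmed to cholesterol. The adult brain makes its own cholesterol, since lipoproteins do not cross the blood-brain barrier, and astrocytes and myelinating oligodendrocytes are known as its main producers. The genes are switched on together by SREBP-2, and those of fatty acid synthesis by SREBP-1, membrane-bound transcription factors that the escort protein SCAP carries to the Golgi when sterols are low and that the INSIG proteins hold back when sterols are high.

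In the neocortex 4 of the 35 genes fell in KO mice, Fdps and Mvk of the mevalonate steps, Fdft1 of the sterol steps and the sterol carrier Stard4. The other 31 did not pass the test, an edgeR quasi-likelihood adjusted p under 0.05 over all genes tested. The share of all 16971 tested genes called lower was 1.20%. None was called higher, where 1.51% of all genes were, and 2 members were higher at p under 0.05 before adjustment, where 8.94% of all genes were, and 0 by DESeq2, which called 3.58% of all genes higher. By edgeR 14 members were lower at p under 0.05 before adjustment, where 9.02% of all genes were. The log2 fold change was below 0 for 27 of the 35 members, against 49.4% of all genes, and the median over the members was -0.15, against 0.002 over all genes. In 13 members every KO library lay below every control library, against 12.4% of all genes, and in 2 members every KO library lay above, against 11.6% of all genes. The count of members lower was 0 without KO mouse D5133, 1 without KO mouse D5132 and 2 without control mouse D5129. DESeq2 called 8 lower, adding Acat2, Hmgcs1, Sqle and Msmo1, and 3.25% of the 13295 genes to which it gave an adjusted p. These changes are relative to the other genes: scaled by spike-in (ERCC) reads in place of TMM, the median of all genes stood at 1.06 and that of the members at 0.92, the 4 genes that fell had values above 0 but below the all-gene median, and 0 members passed as lower.

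In the CA1, Insig1, Sqle and Hmgcs1 fell and Fads2 rose, and 31 of the 35 genes did not pass. Of the 18274 genes tested there, 1.41% were called lower and 2.47% higher. At an edgeR p under 0.05 before adjustment 16 members were lower and 2 higher, against 7.78% and 9.51% of all genes. The log2 fold change was below 0 for 28 members, against 50.1% of all genes, with a median of -0.14 over the members and 0 over all genes. Every KO library lay below every control library in 18 members, against 16.3% of all genes, and above in 4 members, against 17.4%. With 2 KO libraries against 3, such a separation was met more often over all genes than with 3 against 3. The count of members lower was 0 without KO mouse D5133 or control mouse D5138 and 5 without KO mouse D5130, and the 1 call higher was lost without each of these 3 mice. DESeq2 called 5 lower, adding Stard4 and Scd1, and 2 higher, adding Fads1, against 2.66% lower and 3.0% higher of the 15776 genes to which it gave an adjusted p.

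**Figure D1:**
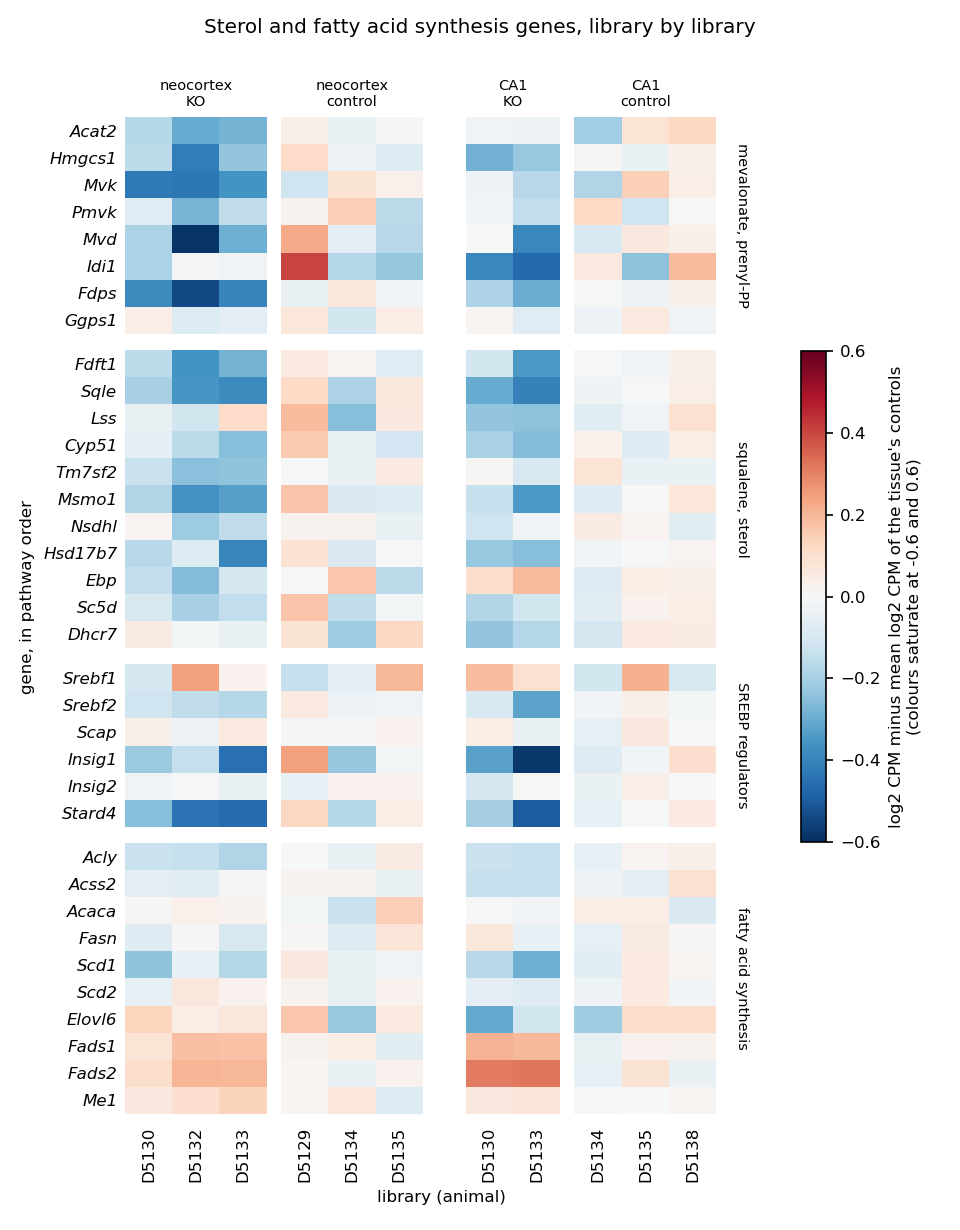
Each row is 1 of the 35 genes, in pathway order, and each column is 1 library named by its animal, with KO libraries left of control libraries in each tissue. The colour is the library's log2 CPM minus the mean log2 CPM of that tissue's control libraries (blue lower, red higher). Blue covers most of the mevalonate and sterol rows in the KO columns of both tissues, while Fads1 and Fads2 are red in all 5 KO columns.

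The mevalonate and prenyl diphosphate steps run from acetyl-CoA to farnesyl and geranylgeranyl diphosphate. In the neocortex 2 of the 8 genes fell, 6 did not pass, all 8 had a log2 fold change below 0, and the median was -0.26. In the CA1 1 of the 8 fell, 7 did not pass, all 8 were below 0, and the median was -0.14. The summed level of the 8 genes was 416, 358 and 397 CPM in the KO neocortex libraries and 496, 463 and 446 CPM in the control ones. In the CA1 it was 348 and 344 CPM in KO libraries and 393, 392 and 406 CPM in control libraries. The KO and control sums did not overlap in either tissue. Hmgcs1 alone made up most of them, at a mean of 273 CPM in the control neocortex and 233 CPM in the control CA1. Gene by gene, KO libraries lay below all controls for 5 of the 8 in the neocortex and 3 of the 8 in the CA1. Over all genes these shares were 12.4% and 16.3%.

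Fdps (ENSMUSG00000059743, chromosome 3, 89093592 to 89101967, minus strand, GRCm38) encodes farnesyl diphosphate synthase, which makes the precursor shared by sterols, dolichol, ubiquinone and protein prenyl groups. It was at 29.9, 26.7 and 29.4 CPM in the KO neocortex and at 37.7, 40.7 and 38.3 CPM in the control neocortex. The groups did not overlap, and KO libraries stood at 73.7% of control (log2 fold change -0.44, edgeR adjusted p = 0.00874, SE 0.070). With each library left out in turn, 5 of 6 fits kept the call, and without KO mouse D5133 the adjusted p was 0.0663. In the CA1 Fdps was at 29.9 and 27.7 CPM in KO mice and at 34.0, 33.2 and 34.8 CPM in control mice. These groups did not overlap either, but the change of -0.24 (edgeR adjusted p = 0.143, SE 0.084) did not pass.

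Mvk (ENSMUSG00000041939, chromosome 5, 114444269 to 114460572, plus strand) encodes mevalonate kinase, which adds the first phosphate to mevalonate. It was at 16.6, 16.5 and 17.4 CPM in the KO neocortex and at 20.5, 23.7 and 22.8 CPM in the control neocortex. The 3 KO libraries lay close together and below every control library, at 75.3% of control (log2 fold change -0.41, edgeR adjusted p = 0.0217, SE 0.080). The call held in 3 of 6 fits with a library left out and was lost without each of the 3 KO mice. In the CA1 Mvk was at 18.0 and 16.5 CPM in KO mice and at 16.3, 20.5 and 19.0 CPM in control mice. Here the groups overlapped, with a log2 fold change of -0.11 (edgeR adjusted p = 0.703, SE 0.114). The difference between the 2 tissues' effects, CA1 minus neocortex, was 0.30 (edgeR adjusted p = 0.493, SE 0.136).

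Hmgcs1 (ENSMUSG00000093930, chromosome 13, 119690462 to 119708086, plus strand) encodes the cytosolic synthase that forms hydroxymethylglutaryl-CoA, and per length it was the most abundant gene of this step, at 59.4 RPKM (reads scaled by exon length and by library size) in the control neocortex and 50.7 RPKM in the control CA1. In the CA1 it was at 190.5 and 199 CPM in KO mice and at 234, 226 and 238 CPM in control mice. KO libraries lay below all control libraries, at 83.7% of control (log2 fold change -0.26, edgeR adjusted p = 0.0229, SE 0.057). It passed in 2 of 5 fits with a library left out, with the adjusted p reaching 0.127. In the neocortex it was at 244, 204 and 232 CPM in KO mice and at 296, 266 and 257 CPM in control mice. The change there was -0.27 (SE 0.072), with no overlap of the groups, and the edgeR adjusted p of 0.0761 did not pass.

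The other 5 genes of the step did not pass in either tissue. Acat2, the cytosolic thiolase that joins acetyl-CoA units, was at 27.4, 25.0 and 25.4 CPM in the KO neocortex and at 31.6, 30.0 and 31.0 CPM in the control neocortex. Its log2 fold change of -0.25 (edgeR adjusted p = 0.0760, SE 0.069) came with no overlap of the groups, while in the CA1 it was -0.04 (SE 0.107). Mvd, which decarboxylates mevalonate diphosphate, had a log2 fold change of -0.36 (edgeR adjusted p = 0.156, SE 0.123) in the neocortex, where KO libraries lay below all controls, and -0.18 (SE 0.125) in the CA1. Idi1, the isomerase of isopentenyl diphosphate, was the least abundant member, at 1.13 RPKM in the control neocortex, and its values of -0.11 (SE 0.181) and -0.44 (SE 0.198) had the widest errors of the step. Pmvk, which adds the second phosphate, had values of -0.17 (SE 0.085) and -0.08 (SE 0.093). Ggps1, which takes farnesyl diphosphate on to geranylgeranyl diphosphate and so leaves the sterol route, had the values closest to 0 in the step, -0.04 (SE 0.071) and -0.03 (SE 0.081).

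**Figure D2:**
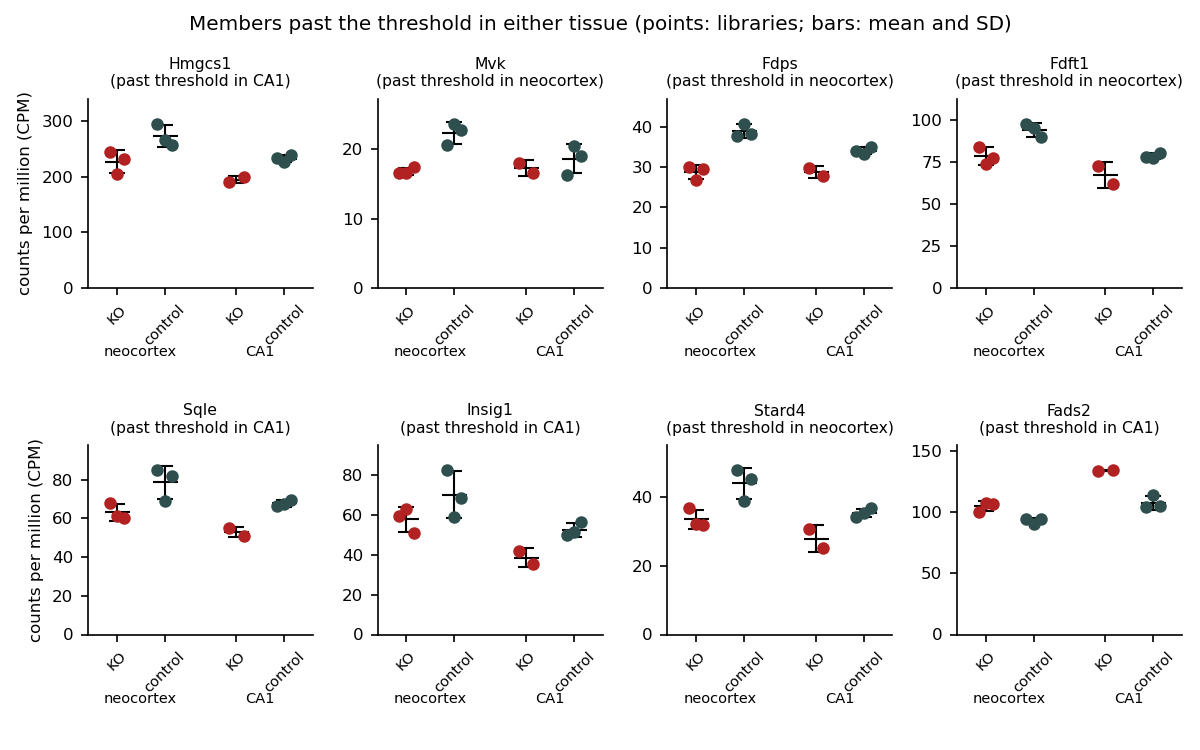
Level in CPM of the 8 genes that passed the threshold in either tissue. Points are libraries (3 KO and 3 control in the neocortex, 2 KO and 3 control in the CA1), bars are the mean and SD, and KO stands left of control. For Fdps, Hmgcs1, Fdft1, Sqle and Stard4 the KO points lie below all control points in both tissues, Mvk and Insig1 do so in 1 tissue each, and for Fads2 the KO points lie above all control points in both tissues.

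The squalene and sterol steps turn farnesyl diphosphate into squalene, lanosterol and cholesterol in the endoplasmic reticulum. In the neocortex 1 of the 11 genes fell, 10 did not pass, all 11 had a log2 fold change below 0, and the median was -0.18. In the CA1 1 of the 11 fell, 10 did not pass, 10 were below 0, and the median was -0.22. The 11 genes summed to 498, 454 and 456 CPM in the KO neocortex and to 588, 516 and 532 CPM in the control neocortex. In the CA1 they summed to 404 and 381 CPM in KO mice and to 446, 449 and 465 CPM in control mice. In each tissue all KO sums were below all control sums.

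Fdft1 (ENSMUSG00000021273, chromosome 14, 63145153 to 63177793, minus strand) encodes squalene synthase, the first enzyme given over to sterols alone. It was at 84.3, 73.6 and 77.6 CPM in the KO neocortex and at 98.0, 95.4 and 89.9 CPM in the control neocortex. The groups did not overlap, with KO at 83.1% of control (log2 fold change -0.27, edgeR adjusted p = 0.0437, SE 0.063). The call held in 2 of 6 fits with a library left out, with an adjusted p of up to 0.226. In the CA1 it was at 72.7 and 62.0 CPM in KO mice and at 78.1, 77.2 and 80.4 CPM in control mice, a change of -0.22 (edgeR adjusted p = 0.134, SE 0.076). KO was again below every control library. The end of Fdft1 overlaps that of Ctsb, and in the unstranded CA1 libraries reads of such an overlap cannot be told apart. The strand setting of the counting is not given, so the neocortex counts behind the call may share such reads too.

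Sqle (ENSMUSG00000022351, chromosome 15, 59315077 to 59331192, plus strand) encodes squalene epoxidase, a rate-limiting oxygenase of the pathway. CA1 levels were 54.9 and 51.0 CPM in KO mice and 66.2, 67.3 and 69.6 CPM in control mice. KO libraries stood at 78.3% of control, below all 3 (log2 fold change -0.35, edgeR adjusted p = 0.0126, SE 0.070). The call held in 3 of 5 fits with a library left out and was lost without KO mouse D5133 or the female control D5138, with an adjusted p of up to 0.0897. In the neocortex it was at 68.1, 61.2 and 60.0 CPM in KO mice and at 84.9, 68.9 and 81.9 CPM in control mice. The groups did not overlap, and the change of -0.32 (edgeR adjusted p = 0.0622, SE 0.081) did not pass.

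The other 9 sterol genes did not pass. Msmo1, a demethylase of the sterol ring, was at 89.4, 78.8 and 80.6 CPM in the KO neocortex and at 114, 95.3 and 95.7 CPM in the control neocortex. Its KO libraries lay below all controls in the neocortex (log2 fold change -0.30, edgeR adjusted p = 0.0693, SE 0.078) and in the CA1 (-0.24, edgeR adjusted p = 0.121, SE 0.079). Cyp51, the lanosterol demethylase, had values of -0.16 (SE 0.076) in the neocortex and -0.23 (edgeR adjusted p = 0.0937, SE 0.070) in the CA1, and Hsd17b7, a sterol ketoreductase, had -0.21 (SE 0.093) and -0.24 (SE 0.093). In the CA1, KO libraries of both lay below every control. Lss, which cyclises the epoxide to lanosterol, had -0.02 (SE 0.112) and -0.25 (SE 0.111), and Dhcr7, the reductase of the last step, had -0.01 (SE 0.092) and -0.21 (SE 0.096). For both, KO and control libraries overlapped in the neocortex and did not overlap in the CA1. Tm7sf2, a sterol reductase, was the reverse, with -0.21 (SE 0.069) and no overlap in the neocortex, and -0.05 (SE 0.090) with overlap in the CA1. Nsdhl, a sterol dehydrogenase, had values of -0.12 (SE 0.078) and -0.07 (SE 0.095), and Sc5d, a sterol desaturase, had -0.16 (SE 0.078) and -0.15 (SE 0.075). Ebp, the sterol isomerase, was the only sterol gene with a value above 0, at 0.15 (edgeR adjusted p = 0.570, SE 0.111) in the CA1, against -0.18 (SE 0.096) in the neocortex. Its difference between tissues, 0.32 (edgeR adjusted p = 0.482, SE 0.143), had the smallest p of the 35 members and did not pass.

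**Figure D3:**
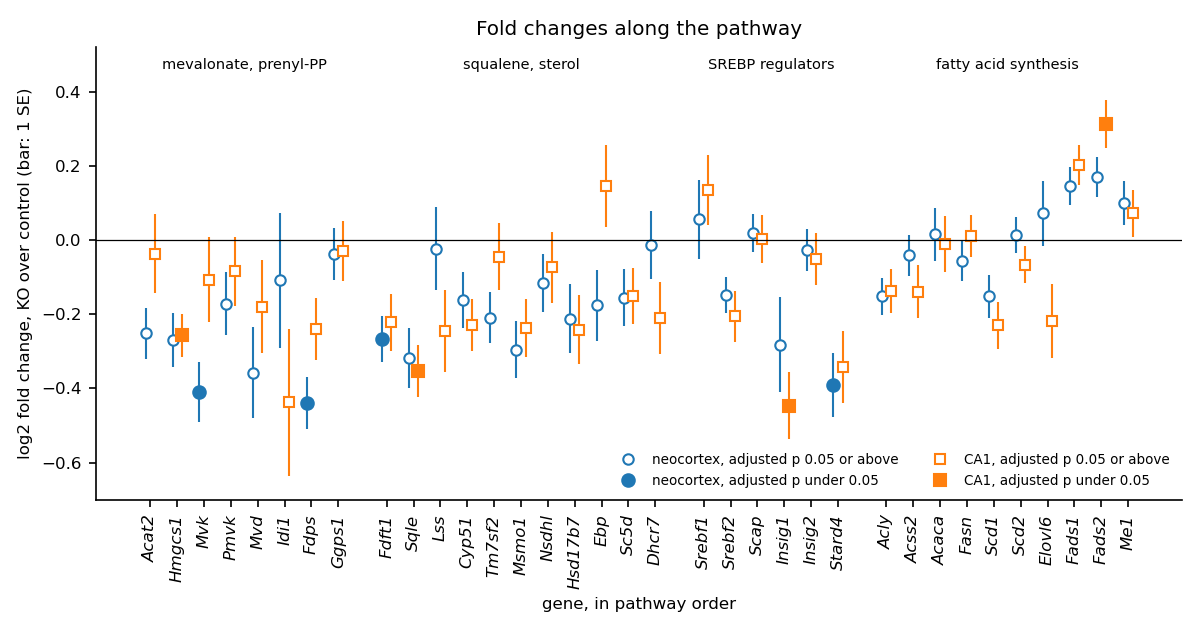
Log2 fold change, KO over control, of the 35 genes in pathway order (circles neocortex, squares CA1, bars 1 SE), with filled symbols for an edgeR adjusted p under 0.05. The mevalonate and sterol genes lie at or below 0 except Ebp in the CA1, and the fatty acid genes spread to both sides of 0, up to Fads2 at 0.31 in the CA1.

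Of the 6 regulators, the sterol carrier Stard4 fell in the neocortex and the feedback gene Insig1 fell in the CA1, and the other 5 did not pass in each tissue. The median was -0.09 in the neocortex and -0.13 in the CA1, with 4 of 6 values below 0 in each. Insig1 (ENSMUSG00000045294, chromosome 5, 28071363 to 28078662, plus strand) encodes an endoplasmic reticulum protein that retains SCAP when sterols are high and is itself a target of SREBP. CA1 levels were 41.7 and 35.1 CPM in KO mice and 49.5, 51.5 and 56.1 CPM in control mice. KO libraries stood at 73.4% of control and below all 3 (log2 fold change -0.45, edgeR adjusted p = 0.0139, SE 0.090). It passed in 3 of 5 fits with a library left out and was lost without KO mouse D5133 or control D5138, with an adjusted p of up to 0.131. In the neocortex it was at 59.4, 62.7 and 50.6 CPM in KO mice and at 82.3, 59.0 and 68.5 CPM in control mice. There the groups overlapped, and the value was -0.28 (edgeR adjusted p = 0.304, SE 0.128).

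Stard4 (ENSMUSG00000024378) encodes a soluble carrier that moves cholesterol between membranes, and it too is a known SREBP-2 target. It was at 36.7, 32.2 and 31.8 CPM in the KO neocortex and at 47.9, 38.9 and 45.2 CPM in the control neocortex. The groups did not overlap, with KO at 76.3% of control (log2 fold change -0.39, edgeR adjusted p = 0.0350, SE 0.086). It passed in 2 of 6 fits with a library left out, with an adjusted p of up to 0.206. CA1 levels were 30.7 and 25.1 CPM in KO mice and 34.2, 35.3 and 36.7 CPM in control mice. KO again lay below all controls, at -0.34 (edgeR adjusted p = 0.0678, SE 0.097).

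Srebf2, which encodes SREBP-2, was at 227, 223 and 219.9 CPM in the KO neocortex and at 258, 242 and 243 CPM in the control neocortex. Its KO libraries lay below all controls in the neocortex (-0.15, edgeR adjusted p = 0.127, SE 0.048) and in the CA1 (-0.21, edgeR adjusted p = 0.119, SE 0.068), and neither value passed. Srebf1, which encodes SREBP-1, had values of 0.06 (SE 0.107) and 0.13 (SE 0.094), with overlap in both tissues. Scap, at 0.02 (SE 0.051) and 0.002 (SE 0.065), and Insig2, the second retention protein, at -0.03 (SE 0.057) and -0.05 (SE 0.070), had the values closest to 0 among the regulators.

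Fatty acid synthesis starts from citrate and acetate in the cytosol, and its products are elongated and desaturated in the endoplasmic reticulum. In the neocortex 0 of the 10 genes passed in either direction by edgeR and by DESeq2, and at p under 0.05 before adjustment there were 2 higher and 2 lower. In the CA1 1 of the 10 rose and 0 fell by edgeR, with 3 lower at p under 0.05 before adjustment and 1 lower by DESeq2. Over all genes p was under 0.05 before adjustment for 8.94% higher and 9.02% lower in the neocortex and for 9.51% higher and 7.78% lower in the CA1, and counts of 1 to 3 members or list genes at that level are to be read against these shares. The medians were 0.01 and -0.04, and 4 and 6 of the 10 values were below 0. The 10 genes summed to 3001, 3224 and 3127 CPM in the KO neocortex and to 3161, 3024 and 3156 CPM in the control neocortex, and to 2860 and 2801 CPM in the KO CA1 and 2804, 2983 and 2880 CPM in the control CA1. KO and control sums overlapped in both tissues.

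Fads2 (ENSMUSG00000024665, chromosome 19, 10064164 to 10101503, minus strand) encodes the desaturase that takes the first step from linoleic and linolenic acid to long polyunsaturated fatty acids. In the CA1 it was at 134 and 135 CPM in KO mice and at 104, 115 and 105 CPM in control mice. Both KO libraries lay above all controls, at 124% of control (log2 fold change 0.31, edgeR adjusted p = 0.0159, SE 0.065). The call held in 2 of 5 fits with a library left out, with an adjusted p of up to 0.0937. In the neocortex it was at 100.4, 108 and 107 CPM in KO mice and at 94.2, 90.9 and 94.9 CPM in control mice. KO was above every control there as well, and the change of 0.17 (edgeR adjusted p = 0.111, SE 0.053) did not pass.

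Fads1, the neighbouring gene on chromosome 19 for the next desaturase of that route, was at 297 and 295 CPM in the KO CA1 and at 250.0, 262 and 261 CPM in the control CA1. KO libraries were above all controls in the CA1 (0.20, edgeR adjusted p = 0.0550, SE 0.054) and in the neocortex (0.15, edgeR adjusted p = 0.156, SE 0.051). Scd1, a stearoyl-CoA desaturase that makes oleic acid, was at 172 and 158 CPM in the KO CA1 and at 185, 201 and 195 CPM in the control CA1. KO libraries were below all controls in the CA1 (-0.23, edgeR adjusted p = 0.0614, SE 0.064) and in the neocortex (-0.15, edgeR adjusted p = 0.185, SE 0.057). Scd2, its paralog and per length the most abundant member, at 305 RPKM in the control neocortex and 279 RPKM in the control CA1, had 0.01 (SE 0.049) and -0.07 (SE 0.050). Reads shared between Scd1 and Scd2, or between Fads1 and Fads2, could have been split or dropped in the counting, which leaves the levels of these pairs uncertain to that extent.

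Acly, which makes cytosolic acetyl-CoA from citrate and so feeds both sterols and fatty acids, was at 183, 183 and 177 CPM in the KO neocortex and at 201, 195 and 208 CPM in the control neocortex. Its KO libraries lay below all controls in the neocortex (-0.15, edgeR adjusted p = 0.119, SE 0.049) and in the CA1 (-0.14, edgeR adjusted p = 0.245, SE 0.059), without passing. The synthase Fasn had values of -0.06 (SE 0.054) and 0.01 (SE 0.057), and the carboxylase Acaca had 0.02 (SE 0.072) and -0.01 (SE 0.076). Both overlapped in both tissues. Acss2, which activates acetate, had -0.04 (SE 0.055) and -0.14 (SE 0.071), the elongase Elovl6 had 0.07 (SE 0.088) and -0.22 (SE 0.100), and Me1, a cytosolic source of NADPH, had 0.10 (SE 0.060) and 0.07 (SE 0.064). None of these passed.

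**Figure D4:**
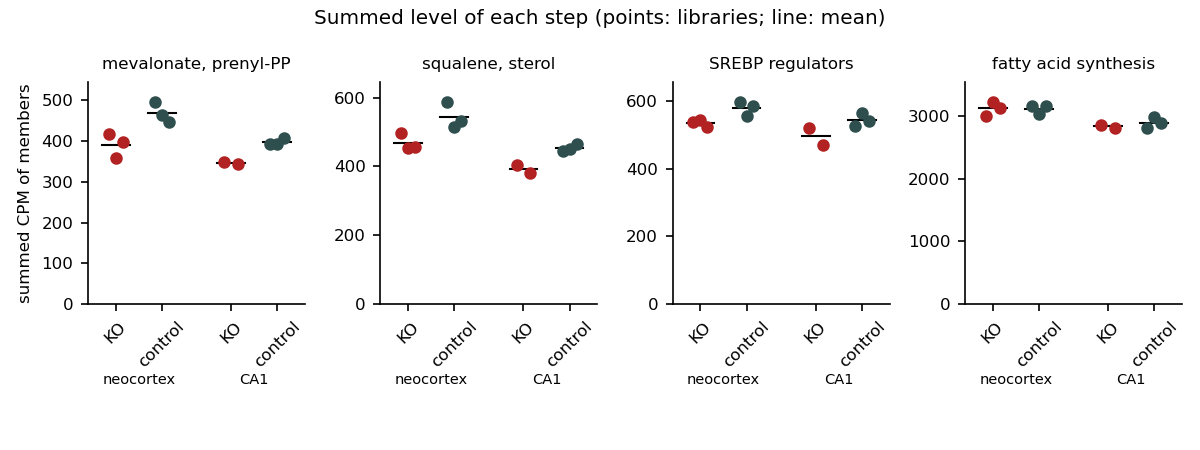
Summed level in CPM of the members of each pathway step, per library (points) with the group mean (line), KO left of control in each tissue and each axis starting at 0. KO and control points do not overlap for the mevalonate and the sterol steps or for the regulators, and they overlap for fatty acid synthesis.

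The 2 tissues were then compared directly. The difference between the KO effects, CA1 minus neocortex, was tested for all 35 members in 1 fit of the 11 libraries, and 0 passed by edgeR, with 2 of 35 at p under 0.05 before adjustment (Mvk and Ebp), a share below that of all genes. Of all 19256 genes tested 0.0935% passed and 9.51% had p under 0.05 before adjustment. The member differences ran from -0.33 to 0.32. Each of the 8 called genes passed in 1 tissue, and none of them was shown to differ between the tissues. The SEs of these differences were 0.070 to 0.281. The comparison also takes in kit, strandedness and lane, which changed with the tissue.

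SREBP acts on promoters through sterol regulatory elements together with NF-Y, which binds CCAAT, and Sp1. RefSeq promoter windows on GRCm38.p6, 250 bases before to 50 after the start, matched 28 of the 35 members by symbol and 18173 genes of the table. Both strands were searched, and a gene counted if any of its windows held the motif. CCAAT was in the windows of 23 members (82.1%), against 41.8% of all genes with a window. The 5 members with a window and no CCAAT were Acat2, Scap, Acaca, Elovl6 and Fads2. Of the 8 called genes Fdps, Fdft1, Sqle and Stard4 had no window. All 9 windows of the sterol step and 6 of the 7 of the mevalonate step held it, against 4 of the 7 of fatty acid synthesis.

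The exact sterol element TCACNCCAC was in 1 member, Hmgcs1, or 3.57% against 1.46% of all genes, and with 1 mismatch allowed it was in 11 members, or 39.3% against 27.3%. The E-box CACGTG was in 5 members, or 17.9% against 9.08%. These are matches of letters in a short window and not measured binding. The windows of the 3 called members that have one and hold CCAAT are given up to the base before the start, as far as no annotated exon is touched, 5′ to 3′ in the direction of the gene, because they carry the motif that most members share. Capitals mark CCAAT or its reverse complement ATTGG and, in Hmgcs1, the sterol element. Mvk holds 5 CCAAT matches, Hmgcs1 3 in the stretch shown, and Insig1 1.
Mvk (chr5:114444061-114444268, plus strand): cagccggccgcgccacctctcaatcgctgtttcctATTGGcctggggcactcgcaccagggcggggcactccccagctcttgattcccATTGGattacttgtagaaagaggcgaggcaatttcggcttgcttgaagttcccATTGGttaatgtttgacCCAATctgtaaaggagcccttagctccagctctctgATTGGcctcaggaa
Hmgcs1 (chr13:119690101-119690350, plus strand): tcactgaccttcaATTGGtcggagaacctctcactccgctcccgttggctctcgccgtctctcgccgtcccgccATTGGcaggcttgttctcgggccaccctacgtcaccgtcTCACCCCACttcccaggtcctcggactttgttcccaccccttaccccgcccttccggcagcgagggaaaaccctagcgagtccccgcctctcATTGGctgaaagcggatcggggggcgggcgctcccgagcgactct
Insig1 (chr5:28071162-28071362, plus strand): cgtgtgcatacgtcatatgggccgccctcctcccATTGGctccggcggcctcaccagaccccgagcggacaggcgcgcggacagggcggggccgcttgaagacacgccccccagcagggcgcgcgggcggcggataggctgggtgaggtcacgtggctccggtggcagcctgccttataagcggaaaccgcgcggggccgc

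Further lists cover other genes of sterol and fatty acid metabolism. Among 14 further genes of sterol synthesis and SREBP processing 0 were called in the neocortex by edgeR, with 3 higher and 3 lower at p under 0.05 before adjustment and 2 higher and 1 lower by DESeq2, and 1 fell in the CA1. The medians were 0.02 and -0.02. The gene that fell was Nfyb, a subunit of NF-Y. It was at 44.1 and 47.1 CPM in the KO CA1 and at 53.9, 55.9 and 56.8 CPM in the control CA1, with no overlap (log2 fold change -0.29, edgeR adjusted p = 0.0416, SE 0.072). The call was lost in all 5 fits with a library left out, with an adjusted p of up to 0.215. Nfya, the subunit that touches the CCAAT bases, was at 29.7 and 29.5 CPM in the KO CA1 and at 22.4, 25.6 and 23.3 CPM in the control CA1. Its KO libraries lay above all controls, and 0.31 (edgeR adjusted p = 0.0743, SE 0.090) did not pass, nor did 0.26 (edgeR adjusted p = 0.0836, SE 0.072) in the neocortex.

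Among 10 genes of the isoprenoid branch (dolichol, ubiquinone and protein prenylation) 0 were called in either tissue by edgeR or DESeq2, with 1 higher and 2 lower at p under 0.05 before adjustment in the neocortex and 1 lower in the CA1, and medians of -0.04 and -0.03. Among 7 genes of sterol storage and lysosomal release 0 were called in the neocortex, with 1 in each direction at p under 0.05 before adjustment and 0 by DESeq2. In the CA1 1 rose and 1 fell. Npc2, the soluble sterol carrier of the lysosome, rose by 0.28 (edgeR adjusted p = 0.0364, SE 0.068), and Nceh1, a cholesteryl ester hydrolase, fell by 0.26 (edgeR adjusted p = 0.0216, SE 0.058). With a library left out the call of Npc2 was lost in all 5 fits, with an adjusted p of up to 0.164, and that of Nceh1 in 3 of 5, without KO mouse D5130 or D5133 or control D5138.

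Among 13 genes of sterol efflux, LXR and oxysterols 0 passed in the neocortex by edgeR, with 2 higher and 1 lower at p under 0.05 before adjustment and 1 higher by DESeq2, and 1 rose in the CA1. The medians were 0.03 and 0.16. Apoe, the main lipoprotein carrier of the brain, made largely by astrocytes and by reactive microglia, was at 1620 and 1748 CPM in the KO CA1 and at 1134, 1174 and 1218 CPM in the control CA1. KO libraries lay above all controls (log2 fold change 0.52, edgeR adjusted p = 0.000157, SE 0.054), and the call held in all 5 fits with a library left out. In the neocortex Apoe was at 1234, 1313 and 1416 CPM in KO mice and at 1069, 1192 and 1026 CPM in control mice, with 0.27 (edgeR adjusted p = 0.0508, SE 0.066) and no overlap.

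An intron of Srebf2 carries the gene of miR-33, a microRNA known to repress the sterol exporter Abca1, and its mature form needs Dicer. The sequence is from RefSeq on GRCm38.p6 (chr15:82198127-82198147, plus strand), with the seed, bases 2 to 8, in capitals.
mmu-miR-33-5p: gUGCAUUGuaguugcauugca

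The libraries were made from polyadenylated RNA and do not measure the mature microRNA, and its part in the Abca1 values was not tested. Abca1 was at 44.7, 49.7 and 46.3 CPM in the KO neocortex and at 42.5, 37.4 and 43.6 CPM in the control neocortex. KO libraries were above all controls, and the change of 0.19 (edgeR adjusted p = 0.198, SE 0.073) did not pass, nor did 0.25 (edgeR adjusted p = 0.209, SE 0.101) in the CA1, where it was at 49.5 and 61.5 CPM in KO mice and at 47.3, 50.3 and 41.9 CPM in control mice and the groups overlapped.

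Among 22 further genes of fatty acid synthesis, elongation and activation 0 passed in the neocortex by edgeR, with 3 in each direction at p under 0.05 before adjustment and 1 lower by DESeq2, and 1 fell in the CA1, with medians of -0.01 and -0.04. That gene was Fa2h, the hydroxylase of myelin sphingolipid fatty acids. It was at 27.0 and 26.0 CPM in the KO CA1 and at 34.2, 42.4 and 39.5 CPM in the control CA1, with no overlap (log2 fold change -0.55, edgeR adjusted p = 0.00701, SE 0.098), a call lost without KO mouse D5133. In the neocortex the value was -0.12 (edgeR adjusted p = 0.564, SE 0.094).

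**Figure D5:**
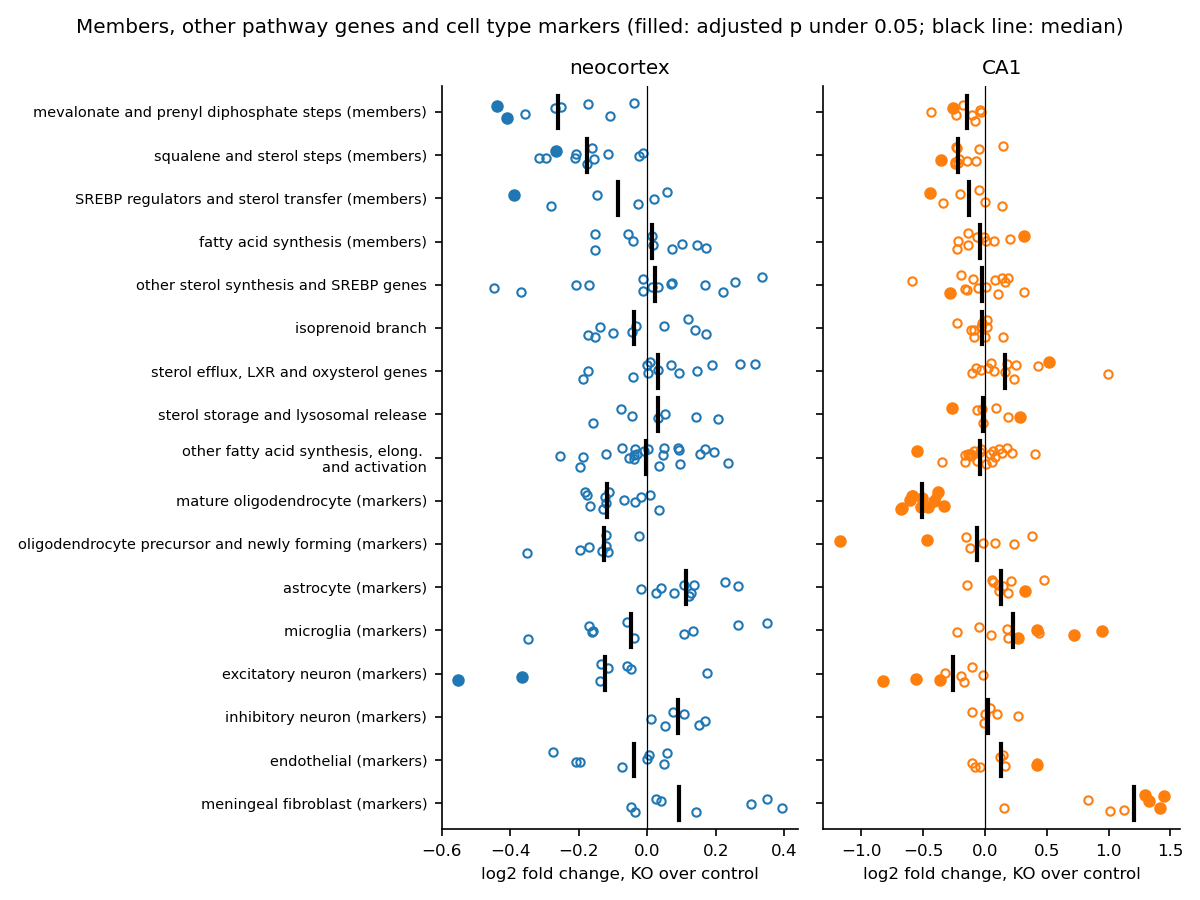
Log2 fold change, KO over control, of single genes (points, filled for an edgeR adjusted p under 0.05) with the median of each list (black line), in the neocortex on the left and the CA1 on the right, whose horizontal scales differ. The mevalonate and sterol members lie left of 0 in both tissues except Ebp in the CA1, and in the CA1 the mature oligodendrocyte markers lie further left, with a median of -0.51, and the meningeal fibroblast markers further right, with a median of 1.21.

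Markers of cell types that make or use sterols moved in the same libraries, and their part in the results above was not tested. In whole tissue, fewer cells of a type and less RNA per cell cannot be told apart. In the CA1 10 of 12 mature oligodendrocyte markers fell (median -0.51), and their summed level was 3141 to 3169 CPM in KO mice and 3861 to 4677 CPM in control mice, with the myelin protein gene Mbp at -0.33 (edgeR adjusted p = 0.0362, SE 0.077) and Ugt8a, for a galactolipid synthase of myelin, at -0.68 (edgeR adjusted p = 0.00225, SE 0.098). The count of 10 was 6 without KO mouse D5130 or D5133 and 12 without control D5134, and the call of Mbp held in 1 of 5 such fits. In the neocortex 0 of the 12 passed by edgeR, with 2 lower at p under 0.05 before adjustment and 0 by DESeq2 (median -0.12), and their sum was 2997, 3121 and 3554 CPM in KO mice and 3349, 3449 and 3330 CPM in control mice. Of the KO libraries D5130 and D5132 lay below every control and D5133 above. Tested for the difference between the KO effects, CA1 minus neocortex, 0 of the 12 passed by edgeR. Before adjustment 11 were lower at p under 0.05. Of 8 precursor and newly forming oligodendrocyte markers 2 fell in the CA1 by edgeR. Their values there ran from -1.18 to 0.38 (median -0.07), with 3 lower and 1 higher at p under 0.05 before adjustment. They summed to 265 to 280.5 CPM in the KO CA1 and 316 to 353 CPM in the control CA1. In the neocortex 0 of the 8 passed by edgeR or DESeq2 (median -0.13), with 2 lower at p under 0.05 before adjustment.

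The 10 astrocyte markers, whose medians were 0.11 in the neocortex and 0.13 in the CA1, summed to 2583 to 2831 CPM in KO mice and 2475 to 2607 CPM in control mice in the neocortex, and to 2566 to 2657 and 2311 to 2361 CPM in the CA1. None passed in the neocortex by edgeR or DESeq2, with 3 higher at p under 0.05 before adjustment, and 1 rose in the CA1 (0 without KO mouse D5133 or control D5135 or D5138). The 8 excitatory neuron markers summed to 4914 to 5028 CPM in KO mice and 5653 to 5728 CPM in control mice in the neocortex, and to 4723 to 5178 and 5290 to 5955 CPM in the CA1, without overlap. Of them 2 fell in the neocortex (1 without KO mouse D5132 or D5133) and 3 in the CA1 (1 without KO mouse D5133). At p under 0.05 before adjustment 4 were lower and 1 higher in the neocortex, and 5 lower and 0 higher in the CA1. DESeq2 called 2 lower and 1 higher in the neocortex, and 4 lower and 0 higher in the CA1. The 1 marker with a value above 0 in the neocortex was at 0.17. Itpka, a kinase of forebrain neurons, fell by 0.55 (edgeR adjusted p = 0.00271, SE 0.066) in the neocortex and by 0.36 (edgeR adjusted p = 0.00595, SE 0.063) in the CA1, where the call was lost without KO mouse D5133.

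Of 10 microglia markers 4 rose in the CA1 (2 without KO mouse D5133 or control D5138), with sums of 404 to 469 CPM in KO mice and 333 to 357 CPM in control mice, and in the neocortex 0 passed by edgeR, with 3 higher and 1 lower at p under 0.05 before adjustment and 2 higher and 1 lower by DESeq2, and sums of 474 to 514 and 474 to 499 CPM. The medians of the microglia markers were 0.23 in the CA1 and -0.05 in the neocortex, with 2 and 6 of the 10 values below 0. Of 8 meningeal fibroblast markers 4 rose in the CA1, with sums of 224 to 273 CPM in KO mice and 104 to 109 CPM in control mice. In the neocortex 0 of the 8 passed by edgeR or DESeq2 and 0 had p under 0.05 before adjustment, with sums of 129 to 169 and 99.2 to 182 CPM. Tested by edgeR for the difference between tissues, 1 of the 10 microglia markers and 0 of the 8 meningeal fibroblast markers passed. Before adjustment 4 and 2 of them were higher at p under 0.05. None of the markers of the cell types named so far was at 0 in a library. Of 5 CA1 pyramidal markers 2 fell in the CA1 (1 without KO mouse D5130 or control D5134), where they summed to 314 to 331 CPM in KO mice and 468 to 516 CPM in control mice. CA1 sums of the 6 dentate gyrus and CA3 markers were 640.7 to 695.1 CPM in KO and 529.8 to 616.4 CPM in control mice. Those of the 6 neocortical layer markers were 189.7 to 199.8 CPM in KO and 164.9 to 186.2 CPM in control mice. KO sums lay above all control sums for both lists. No dentate gyrus or CA3 marker passed, and 3 of the 6 had values below 0. A single neocortical layer marker rose (0 to 1 with a library left out). How far this bears on the results above was not tested. Of 7 striatum markers 3 fell in the neocortex (0 to 2 with a library left out, 0 without KO mouse D5133), with sums of 150.4 to 159 CPM in KO mice and 191 to 235 CPM in control mice.

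Spike-in RNAs added to the neocortex libraries split them by their composition into a set of D5129, D5130 and D5132 and a set of D5133, D5134 and D5135, each holding both genotypes. The median log2 fold change of the 35 members was -0.20 within the first set and -0.14 within the second. Fdps was at -0.41 and -0.43 in the 2 sets, Mvk at -0.31 and -0.42, Stard4 at -0.47 and -0.40, and Fdft1 at -0.31 and -0.26. With the set as a term in the fit 4 members were again called lower, but not the same 4. Fdps and Stard4 passed in both fits, Mvk (edgeR adjusted p = 0.0679) and Fdft1 (edgeR adjusted p = 0.0854) no longer passed, and Insig1 (edgeR adjusted p = 0.0408) and Msmo1 (edgeR adjusted p = 0.0490) did.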

How the data were processed

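Per the labels' protocols, TRIzol RNA (500 ng) gave stranded mRNA libraries with ERCC spike-ins for the neocortex and unstranded mRNA libraries for the CA1. The table deposited by the authors gives raw read counts by Ensembl gene, not normalized. GSNAP, bedtools, SAMtools and FastQC and the build GRCm38 are named in the submitters' processing notes, while versions, roles and strand setting are not given in the sources used here. Members and lists were chosen with earlier results of these data known, and some genes of the lists are counted but not reported by name. Symbols, positions and exon lengths came from GENCODE M21, which named 37607 of 39017 genes.

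Each tissue was fitted alone over the whole table with edgeR 4.0.16 in R 4.3.3 (TMM, filterByExpr, robust quasi-likelihood F-test, two-sided, Benjamini-Hochberg over all genes tested, threshold 0.05). SEs were derived from the log2 fold change and F. CPM uses TMM-scaled sizes, and RPKM divides by exon length. Members past the threshold were named with their values in every library, and the rest by value. The difference between tissues was tested in 1 fit with 4 group means. By the titles, 4 mice (D5130, D5133, and the controls D5134, D5135) gave both tissues, and the deviations of their 2 libraries from the group means correlated by 0.148, 0.144, 0.184 and 0.211 over 16544 genes. Alternatives were DESeq2 1.42.0, its size factors, no filter, ERCC scaling, the ERCC set, the mouse as a block and leaving out each library. The scripts were tested on simulated data. Some members overlap other genes, whose whole counts reached 866% of the reads of Fdft1 in a neocortex library and 883% in a CA1 library. For Mvd they reached 508% and 598%, for Acss2 295% and 292%, and for Tm7sf2 217% and 258%. For Srebf1 they reached 220% and 190%, and for Ggps1 139% and 169%. Lss and Scap overlap genes with up to 14.9% and 21.1% of their reads in a CA1 library. Fdps, Acaca, Scd2, Fads1 and Me1 overlap genes with up to 2.90%.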

Additional observations from a re-analysis of the deposited data

How the results depend on the processing

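The neocortex count of 4 members lower was 8 by DESeq2, 7 without the filter on low counts and 0 with ERCC scaling, and it ran from 0 to 4 with a library left out. Contrasts within each ERCC set (2 libraries against 1) came from a joint fit of all neocortex libraries. They are given as log2 fold changes only. The CA1 counts of 3 lower and 1 higher were 5 and 2 by DESeq2 and 7 and 2 without the filter, and with a library left out they ran from 0 to 5 and from 0 to 1. DESeq2's size factors changed neither count. Scaling by ERCC reads moved the median of all genes to 1.06 and that of the members to 0.92, a gap of -0.15. On that scale Mvk stood at 0.62, Fdps at 0.59, Fdft1 at 0.77 and Stard4 at 0.71 (log2, KO over control), all still below the all-gene median. Which of the scalings reflects the tissue was not tested. The mouse as a replicate block left 0 members called for the difference between tissues, and so did leaving out each library in turn. Groups of 2 or 3 mice limit what these tests can call, and the CA1 libraries are the shallower ones.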
